A study of Mus musculus with 6 samples.

Results

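Heat shock proteins and chaperonins were described in dendritic cells of mouse Peyer's patches, with and without the complement fragment C5a. Members were the probes whose RefSeq accession names a gene with a symbol beginning Hsp90, Hspa, Hspb, Hspd, Hspe, Hsph or Dnaj, the gene Tcp1, or a symbol of Cct followed by a digit. They came to 144 of the 32994 probes that could be named and to 83 of 22911 named genes. Of the members, 44 genes were J proteins, 11 were of the Hsp70 family, 3 were Hsp110 proteins, 3 were Hsp90 proteins, 10 belonged to the cytosolic chaperonin TRiC, 2 were the mitochondrial chaperonin Hsp60 and its partner Hsp10, and 10 had symbols beginning Hspb. Of the last group, Hspb11, Hspbap1 and Hspbp1 share the start of the symbol and are not small heat shock proteins.

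The study asked what C5a, an inflammatory fragment of complement component C5, does to C5aR+ LysoDCs, lysozyme-expressing phagocytes of the intestinal lymphoid patches that carry the C5a receptor. Cells were released with collagenase D and DNase I, freed of dead cells, enriched with CD11c beads and sorted. Of the samples, 3 had been given recombinant C5a at 100 nM for 3 h and 3 were labelled C5a 0 nM, called untreated here. All 6 were cultured with the growth factors CSF-1 at 0.1 µg/mL and CSF-2 (spelled CFS-2 in the labels) at 0.5 µg/mL. The labels give neither the strain or age of the mice nor the culture time of the untreated samples. They do not say whether replicates came from separate animals, so a p-value here speaks only of how these samples scatter, in part perhaps for technical reasons. Each sample was read on 1 Agilent array labelled with Cy3 from 500 ng of RNA.

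Hsp70 proteins bind exposed hydrophobic stretches of unfolded proteins in a cycle driven by ATP. J proteins bring them clients and stimulate ATP hydrolysis, and nucleotide exchange factors, Hsp110 proteins among them, reset the cycle. Hsp90 takes partly folded clients such as kinases and steroid receptors from Hsp70. TRiC, a double ring built from different subunits, folds actin and tubulin inside its chamber. Heat and other protein damage free the transcription factor HSF1, which acts on heat shock elements in many of these genes, whereas unfolded proteins in the endoplasmic reticulum induce a separate set that includes Hspa5 and Hsp90b1.

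The arrays differed in brightness. The 75th percentile of processed signal over detected probes was 254, 377 and 154 intensity units on C5a arrays 1 to 3, against 163, 460 and 109 on untreated arrays 1 to 3. That is a 4.23-fold range, while correlations between arrays over the genes tested were 0.844 to 0.960. All levels below are log2 processed signal relative to this percentile of the same array, so they compare samples for 1 probe and not probes with each other. In such bulk samples fewer cells of a type and less RNA per cell cannot be told apart. Of 18 markers of LysoDCs and mononuclear phagocytes 13 were detected on at least 3 arrays (the log2 of their summed levels was 5.43 to 5.69 in C5a and 5.56 to 5.75 in untreated samples), while Mertk, Cx3cr1, Cd4 and Fcgr1 were on no array. No array detected any of 10 epithelial, 8 neutrophil or 10 stromal and endothelial markers, nor 8 of 9 T cell markers, Cd3e, Cd3d and Cd3g among them, while the other one, Il7r, was on all 6. Of the other lists, 1 of 8 B cell, 2 of 7 plasma cell and 4 of 7 plasmacytoid dendritic cell markers were detected on at least 3 arrays. Their part in the results was not tested.

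Promoters of stress-induced chaperone genes are known for short regulatory elements, and 4 windows that hold one are shown because their genes recur in the comparisons below. The windows run from 250 bases before to 50 bases after the annotated start, in RefSeq's GRCm38.p6 sequence, read 5′ to 3′ on the strand of the gene. Capitals mark matches on either strand, overlapping ones joined, to the heat shock element or to the endoplasmic reticulum stress element, both given by name only, since the patterns searched come from general knowledge and not from a file. The Hspe1 window is chr1:55087898-55088197 on the plus strand, and overlaps the Hspd1 window on the minus strand, because these 2 genes lie head to head. The Hsph1 window is chr5:149636266-149636565 on the minus strand, the Hspa5 window is chr2:34771840-34772139 on the plus strand, and the Hsp90b1 window is chr10:86705395-86705694 on the minus strand.
Hspe1: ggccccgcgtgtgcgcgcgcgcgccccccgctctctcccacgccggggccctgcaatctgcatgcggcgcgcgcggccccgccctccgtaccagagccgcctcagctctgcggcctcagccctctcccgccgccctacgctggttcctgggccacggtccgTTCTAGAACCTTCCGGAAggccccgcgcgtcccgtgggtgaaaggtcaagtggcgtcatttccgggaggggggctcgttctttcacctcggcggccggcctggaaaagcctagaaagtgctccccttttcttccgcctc
Hsph1: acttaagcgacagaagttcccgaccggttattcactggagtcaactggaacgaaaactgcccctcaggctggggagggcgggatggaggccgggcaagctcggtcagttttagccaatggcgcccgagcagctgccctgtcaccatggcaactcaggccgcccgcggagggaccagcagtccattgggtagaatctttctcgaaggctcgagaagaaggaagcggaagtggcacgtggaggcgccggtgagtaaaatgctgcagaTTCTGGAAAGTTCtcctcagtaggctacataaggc
Hspa5: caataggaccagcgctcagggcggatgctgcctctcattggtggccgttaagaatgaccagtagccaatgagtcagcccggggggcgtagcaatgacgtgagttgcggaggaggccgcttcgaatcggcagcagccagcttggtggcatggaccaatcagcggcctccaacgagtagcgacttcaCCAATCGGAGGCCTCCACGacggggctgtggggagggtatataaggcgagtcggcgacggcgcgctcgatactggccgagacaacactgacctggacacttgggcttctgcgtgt
Hsp90b1: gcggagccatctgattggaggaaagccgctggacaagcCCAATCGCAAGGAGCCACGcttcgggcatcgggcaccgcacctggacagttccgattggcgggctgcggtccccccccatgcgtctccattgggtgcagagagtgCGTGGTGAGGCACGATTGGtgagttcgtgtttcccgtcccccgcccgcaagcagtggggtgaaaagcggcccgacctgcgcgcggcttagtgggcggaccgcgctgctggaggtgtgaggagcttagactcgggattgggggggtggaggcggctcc

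The heat shock element was found in the windows of 4 of 68 members that had one (5.88%), against 179 of 27025 genes (0.662%). These members were Hspd1, Hspe1, Hsph1 and the J protein Dnajb6. Hspd1 and Hspe1 share the same matched bases, read on opposite strands. Only 1 strict pattern of the element was searched, and the windows of Hspa1a, Hspa1b, Dnajb1 and Hspb1 held no match to it. The stress element was found in 3 of 68 (4.41%), against 37 of 27025 genes (0.137%), namely in Hspa5, Hsp90b1 and Dnajc3. All 4 genes with a heat shock element were measurable on these arrays, as were Hspa5 and Hsp90b1. A match is a run of letters and no measured binding, and a window without one shows only that these letters are absent from it.

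A larger share of chaperone genes than of all named genes was detected. A gene counted as detected when at least 1 probe was well above background, by the scanner software's flag, on at least 3 of the 6 arrays, whatever the group. By this measure 35 of 83 members were detected (42.2%), against 3276 of 22911 named genes (14.3%). On all 6 arrays a probe was well above background for 17 members (20.5%), against 1429 named genes (6.24%). Counted by probe, 44 of 144 member probes (30.6%) and 3746 of 32994 named probes (11.4%) were kept. These shares describe the same 6 arrays in both cases and were given no test.

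Detection was uneven among the families. Both parts of the mitochondrial chaperonin, Hspd1 and Hspe1, and all 3 Hsp90 genes, cytosolic Hsp90aa1 and Hsp90ab1 and the endoplasmic reticulum form Hsp90b1, were detected. Of the TRiC genes 8 of 10 were, and the 2 on no array were Cct6b, a testis form, and Cct8l1. Of the Hsp70 family 6 of 11 were, namely Hspa1a, Hspa1b, Hspa5, Hspa8, Hspa9 and Hspa14. Hspa13 was above background on 1 array, and Hspa2 and Hspa1l, which are testis forms, and Hspa12a and Hspa12b were on none. Hspa4 and Hsph1 of the Hsp110 family were detected and Hspa4l was on no array. Of the 44 J proteins 13 were detected, 6 were on 1 or 2 arrays (Dnaja3, Dnajb2, Dnajb9, Dnajc9, Dnajc14 and Dnajc30) and 25 were on none. Among these 25 were Dnajc2, the ribosome-bound partner of Hspa14, and the endoplasmic reticulum J proteins Dnajc3 and Dnajc10. Of the genes with symbols beginning Hspb only Hspb1, which encodes the small heat shock protein Hsp25, was detected, and the other 9 were on no array.

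**Figure D1:**
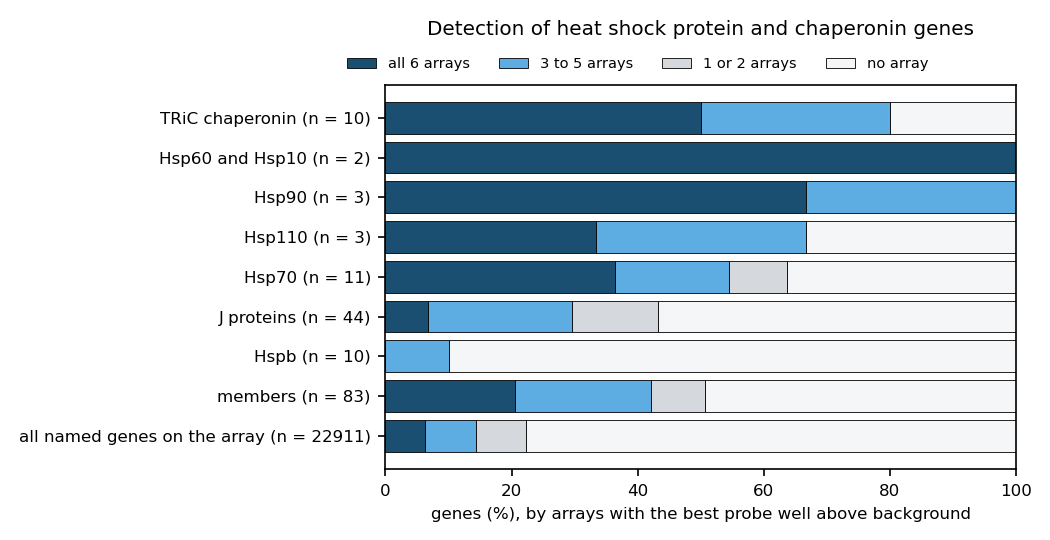
Share of genes (%) by the number of arrays on which the best probe of the gene was well above background, for each family, for all 83 members and for all 22911 named genes. The mitochondrial chaperonin and Hsp90 bars have no undetected part, whereas 90.0% of Hspb genes and 56.8% of J protein genes were on no array.

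How many members an array detected went with how bright it was. Member genes well above background numbered 32, 39 and 28 on C5a arrays 1 to 3, against 26, 40 and 21 on untreated arrays 1 to 3. Array 2 was the brightest and detected the most members in both groups. A gene on no array may still be expressed at a level these arrays could not show.

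**Figure D2:**
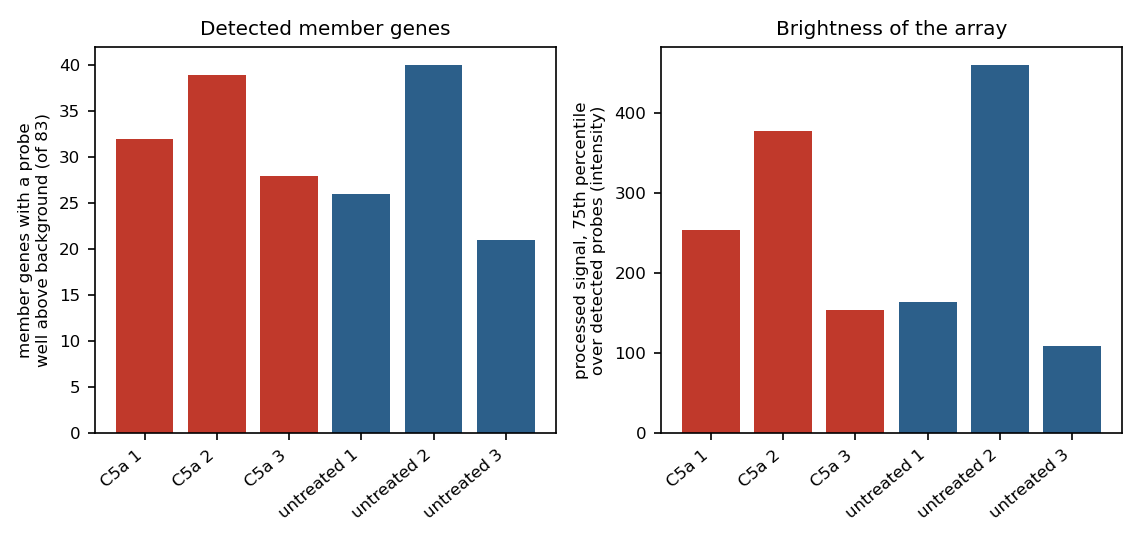
Left, number of the 83 member genes with a probe well above background on each array. Right, the 75th percentile of processed signal over detected probes (intensity units) on the same arrays, C5a in red and untreated in blue. Sample 2 has the tallest bar of its group in both panels.

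The comparison of C5a with untreated samples called no chaperone gene. Of the 35 members measured, 0 passed an adjusted p of 0.05 in limma with Benjamini-Hochberg adjustment over all genes tested, and 0 had an unadjusted p under 0.05. Over all 4488 genes tested the same fit called 0 (0%), and 105 (2.34%) had an unadjusted p under 0.05. With the replicate number as a block, 0 members were called and 2, Dnajc1 and Hspa14, had an unadjusted p under 0.05, against 190 genes (4.23%). C5a and untreated samples overlapped in all 35 members, while they did not in 255 of 4488 genes (5.68%). The lowest adjusted p of a member was 0.999, and its lowest unadjusted p was 0.072 (Dnajc1).

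The differences lay on both sides of 0. C5a minus untreated was positive for 19 members and negative for 16, with a median of 0.04 on the log2 scale and a range of -1.15 to 0.97. Over all genes 2464 were positive and 2024 negative, and the median was also 0.04. A p above the threshold does not show equal levels, so the 95% intervals tell how much was measurable. They lay within 2-fold either way for 10 of 35 members (28.6%), against 1696 of 4488 genes (37.8%). Many of the dimmer members were near the background. Of the 35, 8 were well above it on only 1 untreated array (Cct3, Dnajb6, Dnajb14, Dnajc1, Dnajc21, Hspa14, Hsph1 and Tcp1) and 0 on only 1 C5a array. Part of the values of these 8 are therefore not well above background. Over all probes, untreated arrays 1 and 3 also had fewer well above background (3574 and 2727) than C5a arrays 1 and 3 (4864 and 3668). Untreated array 2 had more (6959) than C5a array 2 (6651). With normexp background correction in place of the scanner's processed signal, the differences of 23 of 35 members were smaller by over 1.5 times. Those of 5 were larger by over 1.5 times, and the median size was 0.13 in place of 0.33. This setting adds an offset of 50 to every signal, which by itself shrinks log2 differences of dim probes. Smaller values with normexp, here and for single genes below, therefore cannot show that a difference came from background. No share over all genes is given for the normexp counts or for the split between groups. Neither is therefore read as a trait of the members. Of the 16 members whose probe was well above background on all 6 arrays, 10 had intervals within 2-fold in the main fit (62.5%). Of all such genes 1278 of 2178 did (58.7%).

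**Figure D3:**
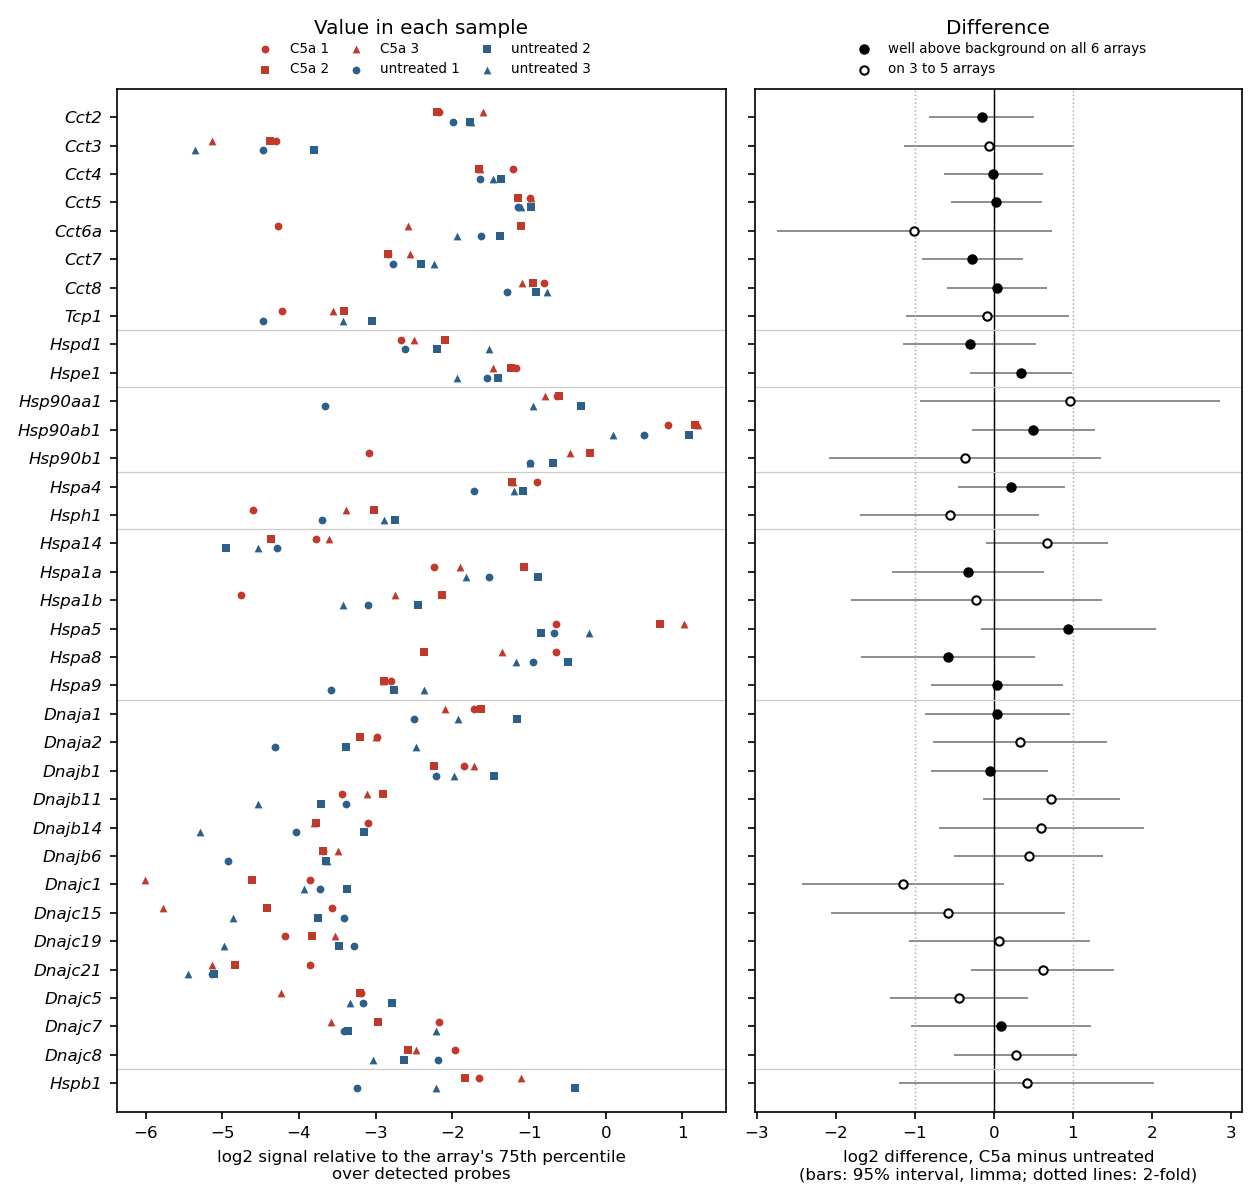
Left, log2 signal of each measured member relative to the array's 75th percentile over detected probes, 1 point per sample, C5a in red above untreated in blue, with marker shape for the sample number. Right, C5a minus untreated (log2) with its 95% interval from limma, filled where the probe was well above background on all 6 arrays. Every interval crosses 0, and those of the TRiC genes Cct2, Cct4, Cct5, Cct7 and Cct8 stay between the dotted lines at 2-fold.

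Hspa8, the constitutive cytosolic Hsp70, had 2 probes well above background on all 6 arrays, and both were lower on average with C5a. On the first the levels were -0.64, -2.37 and -1.35 in C5a samples 1 to 3, against -0.95, -0.49 and -1.17 in untreated samples 1 to 3. That is a difference of -0.58 (SE 0.47), and it came mostly from C5a 2, the lowest of the 6 samples. On the second the levels were -2.69, -2.28 and -3.15 in C5a samples, against -2.11, -1.53 and -2.75 in untreated samples, a difference of -0.57 (SE 0.40). There C5a lay below untreated at each replicate number, whereas on the first probe C5a 1 lay above untreated 1. A further 2 Hspa8 probes were on only 2 arrays each and were not kept.

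Hspa1a and Hspa1b are the heat-inducible Hsp70 genes, near-identical neighbours whose transcripts an array may not separate. Hspa1a stood at -2.24, -1.06 and -1.89 in C5a samples, against -1.52, -0.88 and -1.82 in untreated samples, a difference of -0.33 (SE 0.41). C5a was the lower of each pair with the same number, with differences of -0.72, -0.18 and -0.08, and sample 2 was the highest in both groups. Hspa1b differed by -0.22 (SE 0.67), a value that turned to 0.55 without C5a 1. The Hspa1b probe was not well above background on C5a 1 and untreated 3. The 2 inducible genes thus gave differences well inside their spread. Hspa14, the ribosome-associated Hsp70, differed by 0.67 (SE 0.33), with C5a the higher of each same-numbered pair. Its probe was well above background on 2 C5a arrays and 1 untreated array, and with normexp the difference was 0.028.

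Hspa4, an Hsp110 protein that acts as nucleotide exchange factor, had 2 kept probes that both differed little. The first gave -0.89, -1.22 and -1.20 in C5a samples, against -1.71, -1.08 and -1.19 in untreated samples, a difference of 0.22 (SE 0.29). The second gave -3.07, -2.88 and -2.87 in C5a samples, against -2.89, -2.90 and -3.10 in untreated samples, a difference of 0.03 (SE 0.25). Both intervals stayed within 2-fold. Hsph1, a heat-inducible Hsp110 with a heat shock element just after its start in the window above, differed by -0.56 (SE 0.48). C5a was the lower of each same-numbered pair. Its probe was well above background on C5a 2 and 3 and on untreated 2 alone. The difference was -0.10 with normexp and came to -0.094 at the least on leaving out 1 sample.

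Dnaja1 and Dnajb1 are cytosolic J proteins that serve Hsp70, and their intervals stayed within 2-fold. Dnaja1 stood at -1.72, -1.63 and -2.09 in C5a samples, against -2.50, -1.16 and -1.93 in untreated samples, a difference of 0.05 (SE 0.39). Dnajb1, the heat-inducible Hsp40, stood at -1.85, -2.24 and -1.71 in C5a samples, against -2.21, -1.45 and -1.98 in untreated samples, a difference of -0.05 (SE 0.31). For both genes untreated 2 was the highest of the 6 samples, and the C5a samples lay within the untreated range save C5a 2 of Dnajb1, just below it. Dnaja2, a related J protein, differed by 0.33 (SE 0.47), and Dnajc7, which links Hsp70 and Hsp90, by 0.09 (SE 0.48), and the intervals of both were wider than 2-fold.

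Dnajb6, which holds back aggregation of polyglutamine proteins, is the J protein whose window has a heat shock element and the only one with 2 kept probes. On the first the levels were -3.69, -3.68 and -3.50 in C5a samples, against -4.92, -3.64 and -3.64 in untreated samples, a difference of 0.44 (SE 0.40). On the second they were -3.92, -3.13 and -3.11 in C5a samples, against -4.49, -3.31 and -5.31 in untreated samples, a difference of 0.99 (SE 0.53). Both differences were positive. Each probe passed the background flag in the 3 C5a samples and in untreated 2 alone, so the low untreated values, of number 1 on the first probe and of numbers 1 and 3 on the second, are not well above background. With normexp the difference of the first probe was 0.054. The 2 probes name different transcripts of the gene, and 1 annotated pseudogene makes it less certain.

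The remaining J proteins have more specialised sites of work. Dnajc5, the cysteine string protein of secretory vesicles, differed by -0.44 (SE 0.37). Dnajc8, found with splicing factors, differed by 0.28 (SE 0.33), and Dnajc21, needed for ribosome assembly, by 0.62 (SE 0.38). In Dnajc8 and Dnajc21 C5a was the higher of each same-numbered pair, and in Dnajc5 the lower. Dnajc21 passed the background flag in C5a 1 and 2 and in untreated 2 alone, and with normexp its difference was 0.12. Dnajc8 was not well above background in untreated 3, nor Dnajc5 in C5a 3 and untreated 3. The first pair of Dnajc5 differed by only -0.015. The same sign at all 3 numbers was seen for 12 of 35 members (34.3%), against 1134 of 4488 genes (25.3%).

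Hsp90ab1, the constitutive cytosolic Hsp90, was above the scaling percentile on every array. Its levels were 0.81, 1.16 and 1.21 in C5a samples, against 0.49, 1.08 and 0.09 in untreated samples, a difference of 0.50 (SE 0.33). C5a 2 and 3 were the highest of the 6 samples, and C5a 1 lay between untreated 1 and untreated 2. Its inducible relative Hsp90aa1 had the largest positive difference of the members, which came from 1 untreated array. The first probe gave -0.64, -0.61 and -0.80 in C5a samples, against -3.66, -0.33 and -0.95 in untreated samples, a difference of 0.97 (SE 0.80). Without untreated 1, where that probe stood at -3.66 and was not well above background, the difference was -0.04. The second probe of Hsp90aa1 gave -1.24, -1.07 and -1.03 in C5a samples, against -1.51, -0.92 and -1.42 in untreated samples, a difference of 0.17 (SE 0.28).

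Hspb1, the small heat shock protein that holds unfolded proteins without ATP, varied widely among untreated samples. It stood at -1.66, -1.84 and -1.11 in C5a samples, against -3.24, -0.40 and -2.22 in untreated samples, a difference of 0.42 (SE 0.69). All 3 C5a samples lay between untreated 2, the highest, and untreated 3. The Hspb1 probe was not well above background on untreated 1.

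TRiC had the smallest median standard error of the 7 families. Of its 8 measured genes 2 were positive and 6 negative, with a median of -0.07, and the median standard error was 0.28, against 0.37 over all genes. Cct4 stood at -1.20, -1.65 and -1.65 in C5a samples, against -1.63, -1.37 and -1.47 in untreated samples, a difference of -0.01 (SE 0.27). Cct2, Cct3 and Cct7 differed by -0.15 (SE 0.28), -0.06 (SE 0.46) and -0.27 (SE 0.27), and Tcp1, the gene of the first subunit, by -0.08 (SE 0.44). Cct6a differed by -1.01 (SE 0.74). This rested on C5a 1 at -4.28, a value not well above background, for without that array the difference was -0.19.

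In 2 TRiC genes the kept probes had opposite signs. Cct5 gave -0.99, -1.15 and -0.97 on its first probe in C5a samples, against -1.14, -0.97 and -1.10 in untreated samples, a difference of 0.03 (SE 0.24). Its second probe gave -3.16, -3.10 and -2.81 in C5a samples, against -2.75, -2.37 and -2.88 in untreated samples, a difference of -0.35 (SE 0.27). On the first probe the 6 samples lay close together, and on the second untreated 2 was the highest. Cct8 gave -0.80, -0.95 and -1.09 on its first probe in C5a samples, against -1.29, -0.91 and -0.76 in untreated samples, a difference of 0.04 (SE 0.27). Its second probe gave -3.21, -3.07 and -3.33 in C5a samples, against -2.94, -2.83 and -2.52 in untreated samples, a difference of -0.44 (SE 0.26). On the second Cct8 probe all C5a samples lay below all untreated samples, the only member probe of the 17 in genes with several kept probes to separate, and over all kept probes 286 of 4958 did (5.77%).

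The mitochondrial chaperonin genes share the promoter shown above and both were measured. Hspe1, the Hsp10 lid of the chamber, gave -1.17, -1.23 and -1.47 in C5a samples, against -1.55, -1.41 and -1.94 in untreated samples, a difference of 0.34 (SE 0.27). Its second probe gave -2.59, -2.54 and -4.16 in C5a samples, against -2.996, -3.15 and -4.05 in untreated samples, a difference of 0.30 (SE 0.52). On the first probe C5a was the higher of each same-numbered pair, while on the second sample 3 was the lowest of both groups. Hspd1, the Hsp60 ring, differed by -0.31 (SE 0.36), which lay in the pair numbered 3 (-0.05, 0.11 and -0.97 by pair) and came to -0.012 at the least on leaving out 1 sample, and neither gene's interval left out 0. With 7 annotated pseudogenes or related sequences for Hspe1 and 5 for Hspd1, both are less certain than other members, and Cct3, Dnaja1, Dnajc19, Hspa9 and Tcp1 have 1 each. Hspa9, the mitochondrial Hsp70, differed by 0.04 (SE 0.36), and the J proteins of the import motor, Dnajc15 and Dnajc19, by -0.58 (SE 0.63) and 0.07 (SE 0.49).

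Hspa5, the Hsp70 of the endoplasmic reticulum also called BiP, gave different answers from its 3 probes. Probe A_55_P2076772 gave -0.65, 0.71 and 1.02 in C5a samples, against -0.68, -0.84 and -0.22 in untreated samples, a difference of 0.94 (SE 0.47). C5a 2 and 3 were above all untreated samples on that probe, while C5a 1 was level with untreated 1. C5a 2 and 3 were also the only arrays on row 2 of the slide, so C5a and row cannot be told apart in them. With the row as a covariate, which compares C5a 1 with the 3 untreated samples, the difference of that probe was -0.064. Probe A_55_P2617139 gave -1.96, -1.76 and -1.62 in C5a samples, against -2.08, -0.95 and -1.70 in untreated samples, a difference of -0.21 (SE 0.35). Probe A_55_P2617149 gave -3.45, -2.67 and -2.82 in C5a samples, against -3.41, -2.10 and -2.37 in untreated samples, a difference of -0.35 (SE 0.42). On these 2 probes untreated 2 was the highest sample, and the high values of C5a 2 and 3 on the first probe had no counterpart. All 3 probes name the same transcript, and the arrays with signal well above background were 6, 6 and 5 for the probes in the order given.

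The disagreement was also measured as the gap between probes on each array, a measure chosen after the values were seen. The gap between the first Hspa5 probe and A_55_P2617139 was 1.15 log2 units wider in C5a than in untreated samples, and the gap to A_55_P2617149 was 1.30 wider. They are given as descriptions, since 3 against 3 samples cannot give an exact permutation p below 0.10. For both, the widest gaps were those of C5a 2 and 3, the arrays on row 2 of the slide. For 3 of the 9 pairs of kept probes, those of Cct5, of Cct8 and of Hspa5 against A_55_P2617149, the C5a gaps all exceeded the untreated ones, and over all such pairs of a gene 50 of 470 did not overlap (10.6%). In the other pairs, those of Hspa5 against A_55_P2617139, Hspa8, Hspe1, Hspa4, Hsp90aa1 and Dnajb6, the gaps overlapped. Which Hspa5 probe follows the transcript could not be told from these files.

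**Figure D4:**
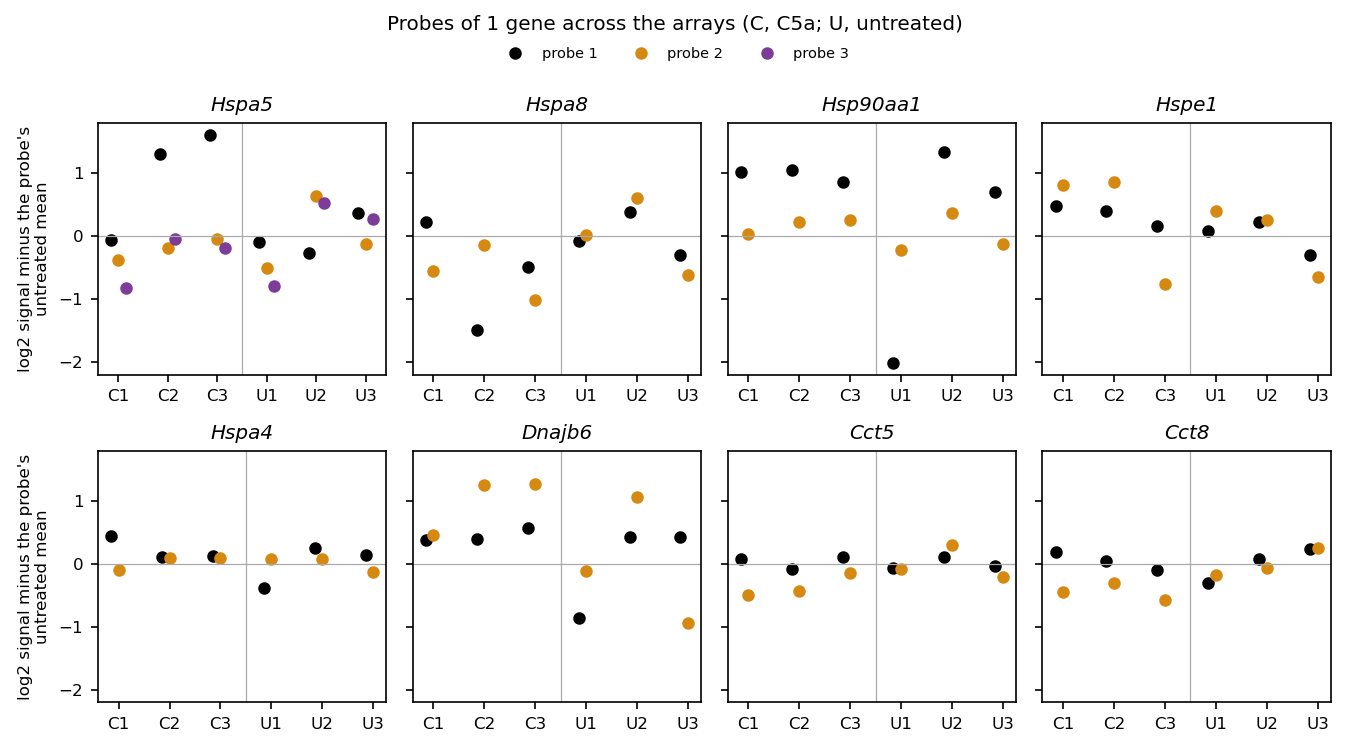
Log2 signal of each kept probe minus that probe's mean over the untreated samples, for the 8 members with more than 1 kept probe, C5a samples (C1 to C3) left of untreated samples (U1 to U3). Probe 1 of each gene is the one taken for the gene. For Hspa5 the first probe stands above the others in C5a 2 and 3, and for Hsp90aa1 the first probe falls away in untreated 1 alone.

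The other folding genes of the endoplasmic reticulum went both ways. Hsp90b1, also called Grp94, has 2 stress elements in its window and stood at -3.08, -0.20 and -0.47 in C5a samples, against -0.99, -0.69 and -0.98 in untreated samples, a difference of -0.36 (SE 0.73). This rested on C5a 1, where the probe was not well above background, and without that array the difference was 0.55. Dnajb11, a soluble J protein partner of BiP, differed by 0.73 (SE 0.37), with differences of -0.06, 0.81 and 1.43 at the 3 replicate numbers. Its probe was not well above background on untreated 3, and with normexp the difference was 0.19. Dnajb14, a membrane J protein, differed by 0.60 (SE 0.55), but by 0.035 without untreated 3. With normexp, whose offset shrinks differences of dim probes, the Dnajb14 difference was 0.022. Dnajc1, another membrane J protein, had the most negative difference of the members, -1.15 (SE 0.54), with differences of -0.13, -1.24 and -2.07 at the 3 replicate numbers. Its probe was well above background on C5a 1 and 2 and on untreated 2 alone, and the difference was -0.56 without C5a 3. With normexp, whose offset shrinks differences of dim probes such as this one, it was -0.19. That was less than for Cct6a (-0.38) or Hspa8 (-0.31).

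Partner genes outside the families were measured for 40 genes of 7 lists, and none passed the test. Of these 27 were positive and 13 negative, with a median of 0.14, against 0.04 over all genes, 2 had an unadjusted p under 0.05 (2.34% over all genes) and 4 did not overlap (5.68% over all genes). The 4 were Ier5, Uggt1, Derl2 and Canx, all higher in every C5a sample than in every untreated one, and Canx, the lectin chaperone calnexin, was picked out after its values were seen. Ier5, an immediate early gene whose product is known to promote HSF1 activity, stood at -0.68, -0.78 and -0.06 in C5a samples, against -2.61, -1.25 and -2.93 in untreated samples, a difference of 1.76 (SE 0.48). In limma its unadjusted p was 0.00801 and its adjusted p 0.999 after Benjamini-Hochberg. Ier5 and Derl2 each passed the background flag in 3 C5a samples and 2 untreated samples, so their untreated levels are in part not well above background. Uggt1, which re-glucosylates misfolded glycoproteins for another round with calnexin, stood at -2.61, -2.74 and -2.73 in C5a samples, against -4.01, -3.44 and -3.47 in untreated samples, a difference of 0.95 (SE 0.27). Uggt1 passed the background flag in 3 C5a samples and 1 untreated sample, so it was kept through the group where it was higher and its untreated level is in part not well above background. Untreated 2 was the untreated sample nearest to C5a in Ier5 and Uggt1.

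The endoplasmic reticulum folding list had 16 measured genes, 10 positive and 6 negative. Beside Uggt1 its rule named Derl2, of the retrotranslocation machinery, at 0.49 (SE 0.27), and the disulfide isomerases P4hb at -0.36 (SE 0.33) and Pdia3 at -0.34 (SE 0.34). Canx differed by 0.31 (SE 0.28). All 3 measured unfolded protein response factors were positive, with Atf4 at 0.28 (SE 0.32) and Xbp1 at 0.11 (SE 0.48) the 2 of lowest p. Of the heat shock regulators only Ier5 and Hsbp1, an HSF1 binding protein, were measured, and Hsbp1 differed by -0.27 (SE 0.43).

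Of 9 Hsp90 co-chaperones and adaptors 5 were positive and 4 negative. Named by rule were Fkbp8, an immunophilin, at 0.59 (SE 0.50) and Ptges3, the p23 co-chaperone, at 0.36 (SE 0.32). On the negative side were Ahsa1, which activates the Hsp90 ATPase, at -0.74 (SE 0.65) and Stip1, the adaptor between Hsp70 and Hsp90, at -0.72 (SE 0.68). Ahsa1 had 1 low C5a sample, at -2.73 in C5a 3. Fkbp8 passed the background flag in 2 C5a samples and 1 untreated sample, and Stip1 in 1 C5a sample and 2 untreated samples. Each was kept mainly through the group where it was higher, so its values are in part not well above background. Of the 3 nucleotide exchange factors Grpel1 of mitochondria was at 0.56 (SE 0.39), Bag1 at 0.10 (SE 0.39) and Bag6 at -0.08 (SE 0.27). All 4 prefoldin and chaperonin cofactor genes were positive, with Pfdn2 at 0.42 (SE 0.28) and the tubulin cofactor Tbca at 0.16 (SE 0.26). Mitochondrial proteases and import genes were at 0.55 (SE 0.39) for Htra2, 0.23 (SE 0.40) for Pam16 and -0.18 (SE 0.38) for Spg7.

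Replicate number and genes of tissue handling were looked at beside these values. Sample 2 was the highest of its group in both groups for 8 of 35 members (22.9%), Cct6a, Dnaja1, Hsp90aa1, Hsp90b1, Hspa1a, Hspa1b, Hsph1 and Tcp1, against 583 of 4488 genes (13.0%). Tissue dissociation is known to induce immediate early and heat shock genes, and of 14 such early genes 7 were measured, Fos and Nr4a1 being on no array. All 7 were positive with a median of 0.17, and Dusp1, Jun and Zfp36 were higher in every C5a than in every untreated sample, 3 of 7, against 5.68% of all genes without overlap in either direction. The separations of Dusp1 and Jun were narrow. Their lowest C5a samples stood at -1.43 and -2.74, against highest untreated samples at -1.46 and -2.79. They differed by 0.22 (SE 0.26) and 0.32 (SE 0.27). Zfp36, at 1.31 (SE 0.51), passed the background flag in 2 C5a samples and 1 untreated sample. The log2 of the summed levels of the list was 2.18 to 2.39 in C5a and 1.97 to 2.23 in untreated samples. C5a and handling were not told apart in these early genes, and the part of handling in the chaperone values was not tested.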

How the data were processed

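Total RNA of 6 samples, 3 given C5a and 3 untreated, was read on 1-colour Agilent arrays (design 074809), scanned with Feature Extraction 10.10.1.1 under protocol GE1_1100_Jul11, per the file headers. The deposited scanner files give each spot's intensity as a processed signal, background-subtracted within the array and not scaled between arrays, per the file headers, with flags of 0 or 1 for spots well above background, saturated or out of line. The deposited series table holds log2 values. Its column differences were within 0.01 for 98.9% of values of those computed from the scanner files after subtracting, per array, the 75th percentile of all probes on the log2 scale. Its column medians were 0.01, -0.02 and 0.22 for C5a 1 to 3 and 0.17, -0.08 and 0.18 for untreated 1 to 3, and the baseline of each probe is unknown.

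Of 62976 spots per array, 59305 were no controls and stood for 56605 probes. Spots marked as outliers (112 to 138 per array) were left out and 0 were saturated. Replicate spots were averaged after taking log2 of the processed signal, and the array's 75th percentile was subtracted. It was taken over 2370 probes that all 6 arrays showed well above background, because 48672 probes were on 0 arrays. The 4958 probes well above background on at least 3 arrays were kept, and a gene was its kept probe with the highest mean, which gave 4488 genes, 3276 of them named. Per array, 3668 to 6651 probes were well above background in C5a and 2727 to 6959 in untreated samples. The number of arrays limits the precision. Probes were named through unversioned RefSeq accessions in a table of GRCm38.p6, which matched 32994. The array design cites mm9, so no probe coordinates are given, and promoter windows are RefSeq's GRCm38.p6.

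Groups were compared as C5a minus untreated with limma 3.58.1 in R 4.3.3 (lmFit and eBayes, without a block), Benjamini-Hochberg adjusted over all genes, threshold 0.05. The scripts were tested on simulated data. Deviations from the group means correlated at 0.21, 0.27 and 0.38 between samples of the same number, and at -0.25 to 0.07 otherwise. Samples of the same number were therefore set side by side as a description, though the labels state no pairing. The standard errors and intervals given are from the fit without a block. Array 2 was also the brightest and array 3 the dimmest in both groups, and the part of brightness in these correlations was not tested. The members and lists were chosen with earlier results of these data known. Every measured member is named. Values in every sample are given for the 14 with the highest mean level and for those with several kept probes, as they would have been for members past the test or with separate groups, of which there were 0. Of each partner list the 2 genes of smallest unadjusted p in each direction are named. Alternatives were another scaling, normexp background correction (offset 50, on the median spot signal in place of the planned mean signal, which was not used here), quantile normalization, other filters, the mean of a gene's probes, the series table, the replicate block, the row on the slide and leaving out each sample. All arrays share 1 slide and 1 scan time.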

Additional observations from a re-analysis of the deposited data

How the results depend on the processing

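No count of called genes changed under the alternatives except without a filter on dim probes, where 47 of all genes and 48 probes were called in place of 0, and 0 members, and the cause was not tested. The lowest adjusted p of a member over the alternatives was 0.243 in limma. With the replicate block 0 genes were called, and the block changed no other call. The median of the members moved by less than the spread between replicates in all settings run, and the median of the partner genes did so except with the row on the slide as a covariate, where it was 0.37 in place of 0.14. That setting compares C5a 1 with the 3 untreated samples, which share row 1 with it, since row 2 holds only C5a samples. Of the 35 members 17 kept their sign in all settings and 18 did not. Values with scaling over all probes, the series table and normexp are relative to the shift of all genes, which was 0.36, 0.36 and -0.16. Other values are as fitted, and the shift was 0.10 with the row and -0.44 without a filter. With normexp the difference of opposite sign was 0.10 for Cct4, 0.050 for Dnajb1, -0.16 for Dnajc19, 0.30 for Hsp90b1 and 0.042 for Hspa1b. With quantile normalization it was 0.44 for Cct3, 0.0019 for Cct4 and 0.14 for Tcp1, and without a filter 0.12 for Cct3, from another probe. With the mean of a gene's probes it was -0.16 for Cct5 and -0.20 for Cct8. With the row on the slide it was 0.24 for Cct3, 0.29 for Cct4, 0.031 for Dnajb1, 0.44 for Dnajc15, -0.26 for Dnajc19, -0.064 for Hspa5 and 0.23 for Hspa8. Relative to the shift with the row, Dnajb1 would keep its sign and Cct5 and Hspa9 would turn. On leaving out 1 sample in turn 15 members turned, with ranges of Cct3 -0.47 to 0.31, Cct4 -0.15 to 0.067, Cct8 -0.11 to 0.15, Dnaja1 -0.27 to 0.40, Dnaja2 -0.13 to 0.79, Dnajb1 -0.22 to 0.16, Dnajc15 -1.09 to 0.011, Dnajc19 -0.46 to 0.38, Dnajc7 -0.28 to 0.48, Hsp90aa1 -0.041 to 1.63, Hsp90b1 -0.89 to 0.55, Hspa1b -0.76 to 0.55, Hspa9 -0.30 to 0.31, Hspb1 -0.23 to 1.20 and Tcp1 -0.49 to 0.22. The scaling over all probes, the series table, the block and the strict filter on all 6 arrays turned 0 members. Scaling relative to the shift and the block leave every difference as it was, so neither could turn a sign. The series table holds nearly the same differences. The strict filter measured only 17 members, with unchanged differences save for Hsp90aa1. Signal over background limits the comparison to 35 of 83 members.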
